A study of Mus musculus with 9 samples.

Results

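*Hcn2*, *Hcn3* and *Hcn4* are mouse genes of the hyperpolarization-activated, cyclic nucleotide-gated (HCN) channel family, and they were taken by name from the 21457 features of the expression matrix. All 3 were described over 16042 spinal cholinergic nuclei, in the 21 clusters the authors labelled. The nuclei came from mice of 8 weeks with the genotype *Chat-iCre*:+/wt and SUN-SfGFP:+/wt, in which Cre made under *Chat*, the gene of the acetylcholine-synthesizing enzyme, switches on a green fluorescent protein of the nuclear envelope, so that every cell that ever used *Chat* is marked. None of the mice was treated. Spinal cords of 12 mice were combined into 3 pools of 4 (replicate 1 with 2 males and 2 females, replicate 2 with males, replicate 3 with females), the cords of a pool were cut by level (cervical, thoracic, lumbar/sacral), and the sorted nuclei of each level made up 1 of 9 libraries. Sex and pool therefore cannot be told apart, and the 3 libraries of a pool share their mice, so p-values over libraries measure a spread that comes from 3 pools.

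HCN channels open when the membrane is hyperpolarized and pass a mixed sodium and potassium current, called Ih, that pulls the membrane back towards threshold. Binding of cyclic AMP to the cytoplasmic end of the channel eases opening, most in HCN2 and HCN4 and little in HCN3. HCN4 is best known as the channel of the cardiac pacemaker, HCN2 is widespread in the brain, and HCN3 is found at low levels in many neurons. In motor neurons Ih affects the resting potential, rebound firing and the response to synaptic input.

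The 3 members lie on different chromosomes (GRCm38, GENCODE vM21). *Hcn2* (ENSMUSG00000020331) spans chr10:79716634-79736108 on the plus strand. *Hcn3* (ENSMUSG00000028051) spans chr3:89146074-89160196 on the minus strand, and its end overlaps *Pklr*, on the other strand, by 711 bases. Reads in that stretch may belong to either gene if the counting did not use strand. *Hcn4* (ENSMUSG00000032338) spans chr9:58823412-58863175 on the plus strand. The coding stretch of 45 bases at the selectivity filter of the pore, in exon 4 of each gene, is shown because it is the part by which the family is recognized, with the 9 bases of the filter in capitals. It lies at chr10:79728938-79728982, plus strand, in *Hcn2*, at chr3:89150991-89151035, minus strand, in *Hcn3* and at chr9:58855570-58855614, plus strand, in *Hcn4*. Each is read 5′ to 3′ along the transcript:
Hcn2: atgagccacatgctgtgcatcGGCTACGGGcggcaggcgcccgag
Hcn3: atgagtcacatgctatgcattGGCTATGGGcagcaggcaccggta
Hcn4: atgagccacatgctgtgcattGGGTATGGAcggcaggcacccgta
*Hcn2* and *Hcn3* have the same base at 36 of the 45 positions, *Hcn2* and *Hcn4* at 38, and *Hcn3* and *Hcn4* at 39.

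Levels are given per 1000000 corrected counts of the authors (CPM), added up over all nuclei that a library holds of a class or a cluster. The corrected counts are whole numbers made by a model that evens out depth between nuclei, not counts of molecules. The 9 libraries held between 747 and 2825 nuclei with a median of 4712 to 16127 corrected counts per nucleus. The 5054 skeletal motor nuclei (clusters S1 to S3), 5613 visceral motor nuclei (V1 to V10) and 5375 interneuron nuclei (I1 to I8) carried their defining markers: *Tns1*, *Prph* and *Bcl6* together were at 432 to 828.7 CPM in skeletal nuclei and at most 207 CPM elsewhere and *Zeb2*, *Fbn2* and *Nos1* at 1000 to 1632 CPM in visceral nuclei and at most 576 CPM elsewhere. The inhibitory markers *Gad1*, *Gad2* and *Slc6a5* summed to 241 to 310.01 CPM in interneurons and at most 69.7 CPM elsewhere. The cholinergic genes *Chat* and *Slc5a7* were found in every class, summing to 306 to 747 CPM. In the library labelled cervical replicate 2 the Hox genes went against the label, since *Hoxa9*, a gene of caudal segments, stood at 9.68 CPM there against 0.213 and 0.412 CPM in the other cervical libraries. The library labelled thoracic replicate 2 did the same the other way, with *Hoxa9* at 0.507 CPM against 9.04 and 9.35 CPM. The fits that compare regions are therefore given with and without both libraries. The libraries also fell into 2 sets by the share of the nuclear RNA *Malat1*: 4 libraries (cervical 1 and 3, thoracic 1 and lumbar/sacral 1) held 3.03 to 3.40% of it, and 5 held 8.30 to 12.4%. Of the markers of other cells, those of astrocytes, 3 in all, summed to 6.30 CPM at most, and those of microglia differed between libraries as given with the *Malat1* sets. The 4 oligodendrocyte markers summed to 54.9 to 90.6 CPM in skeletal nuclei, 34.9 to 60.6 CPM in visceral nuclei and 36.7 to 53.2 CPM in interneurons, and their part in the class differences was not tested. Of all nuclei, 66 shared their barcode with a nucleus of another library.

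Among the 3 members *Hcn2* was the most abundant in every class, *Hcn3* came next and *Hcn4* was near the detection limit. Dividing by gene span gives only a rough scale between genes, since the counts need not follow span. The order was the same without dividing. Per kilobase of gene span, the level of *Hcn2* was 3.30 ± 1.07 CPM per kb in skeletal nuclei, 2.77 ± 0.979 in visceral nuclei and 3.87 ± 1.23 in interneurons (SD, n = 9 libraries). The level of *Hcn3* on this scale was 1.68 ± 0.347, 2.06 ± 0.160 and 1.59 ± 0.254 CPM per kb, and that of *Hcn4* 0.206 ± 0.0583, 0.0849 ± 0.0220 and 0.128 ± 0.0357 CPM per kb. Nuclear RNA holds introns, so the span of the gene and not its spliced length was used.

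Detection was sparse. *Hcn2* was found, with at least 1 corrected count, in 1902 of 5054 skeletal, 1844 of 5613 visceral and 2049 of 5375 interneuron nuclei. *Hcn3* was found in 835, 1223 and 789 of them, and *Hcn4* in 309, 145 and 194. Nearly all nuclei with *Hcn4* held 1 corrected count, as 296 of the 309 skeletal nuclei did, while 431 of the 1902 skeletal nuclei with *Hcn2* held 2 or more. Averaged over libraries, the share of nuclei with any of the 3 was 55.8% ± 16.5 in skeletal nuclei, 49.5% ± 14.8 in visceral nuclei and 52.4% ± 16.2 in interneurons (SD, n = 9). These shares differed between libraries, which differed in depth and in *Malat1* set. The share of skeletal nuclei with *Hcn2* ran from 25.2% in lumbar/sacral replicate 1, the library with the lowest totals, to 80.1% in cervical replicate 2, the one with the highest. The first is in the low and the second in the high *Malat1* set. Depth did not order all libraries: cervical replicate 3, with a median total of 10256, had 26.2%, and lumbar/sacral replicate 2, with 7175, had 49.5%. The parts of depth and set were not tested. To compare shares at 1 depth, nuclei were thinned to a total of 4600. Shallower nuclei were dropped, which were 44.1% of lumbar/sacral replicate 1, 13.6% of lumbar/sacral replicate 3 and none of the other libraries. The thinned share with *Hcn2* was 26.5% ± 8.21, 21.03% ± 6.50 and 28.5% ± 7.57 in skeletal, visceral and interneuron nuclei, against 42.7% ± 18.2, 35.0% ± 15.7 and 42.9% ± 16.5 unthinned. The thinned share with *Hcn3* was 10.4% ± 2.52, 12.8% ± 1.29 and 10.5% ± 1.72 (unthinned 17.7% ± 3.47, 21.8% ± 7.37 and 16.9% ± 6.11), and with *Hcn4* 3.39% ± 1.51, 1.61% ± 0.678 and 2.45% ± 1.15 (unthinned 6.33% ± 1.38, 2.72% ± 0.928 and 4.08% ± 1.67). The matrix holds no cell type that should lack these genes, so the share that free RNA gives was not measured.

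*Hcn2* differed between all 3 classes, highest in interneurons and lowest in visceral nuclei. In skeletal nuclei it stood at 48.6, 81.3 and 31.5 CPM in cervical replicates 1 to 3, at 47.5, 97.1 and 67.0 CPM in the thoracic ones and at 59.8, 85.8 and 59.1 CPM in the lumbar/sacral ones. In visceral nuclei of the same libraries it stood at 36.2, 64.6 and 24.9, at 37.4, 78.7 and 64.5, and at 40.7, 69.5 and 68.7 CPM. In interneurons it stood at 59.1, 99.9 and 35.3, at 57.8, 106 and 91.4, and at 59.5, 95.3 and 73.5 CPM. The ranges of the classes overlapped widely, but the order held inside the libraries: visceral nuclei were below interneurons in 9 of 9 libraries, skeletal nuclei were above visceral nuclei in 8 of 9 (lumbar/sacral replicate 3 was the other way) and below interneurons in 8 of 9. In limma fits with a term for the library, with Benjamini-Hochberg adjustment over 11292 genes, the difference on the scale of log2(CPM + 5) was 0.25 (SE 0.056, adjusted p = 0.000584) for skeletal against visceral nuclei, -0.21 (SE 0.056, adjusted p = 0.00257) for skeletal nuclei against interneurons and -0.46 (SE 0.056, adjusted p = 5.66e-07) for visceral nuclei against interneurons. Of all genes tested, 66.7%, 59.5% and 51.4% were called in these comparisons, so a call by itself was common. Without the library term the adjusted p-values were 0.385, 0.497 and 0.116. With the clusters of a class weighted equally the differences were 0.14 (adjusted p = 0.0368), -0.40 (adjusted p = 1.21e-06) and -0.54 (adjusted p = 1.21e-08), so the first was smaller and the second larger than with all nuclei summed. That fit used only clusters with at least 10 nuclei in every library: S1 to S3, V1 to V4, V7 and I1 to I6. The parts of the weighting and of the clusters left out were not told apart. In the 5 libraries with much *Malat1* alone the difference of skeletal from visceral nuclei was 0.15 (adjusted p = 0.134), and in the 4 with little *Malat1* that of skeletal nuclei from interneurons was -0.16 (adjusted p = 0.0534). The classes are labels the authors drew from these nuclei, so the tests describe the labels.

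*Hcn3* had another order, with visceral nuclei highest. Visceral nuclei held it at 31.3, 29.1 and 29.4 CPM in the cervical libraries, at 33.5, 29.4 and 29.1 CPM in the thoracic ones and at 27.4, 26.1 and 26.9 CPM in the lumbar/sacral ones, a narrow range. Interneurons of the same libraries held 26.2, 21.7 and 18.1, then 25.9, 22.2 and 28.5, then 19.6, 19.0 and 21.4 CPM, and were lower in 9 of 9 libraries. Skeletal nuclei held 24.9, 15.3 and 20.9, then 24.1, 22.8 and 26.9, then 33.5, 22.1 and 22.5 CPM, and were below visceral nuclei in 8 of 9, lumbar/sacral replicate 1 being the exception. The limma difference was 0.32 (SE 0.078, adjusted p = 0.0017) for visceral nuclei against interneurons and -0.27 (SE 0.078, adjusted p = 0.00488) for skeletal against visceral nuclei. Without replicate 2 the latter was -0.19 with an adjusted p of 0.0848, and in the libraries with little *Malat1* alone it was -0.21 with an adjusted p of 0.164. Skeletal nuclei and interneurons did not differ by more than their error (0.05, SE 0.078, adjusted p = 0.594).

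*Hcn4* was highest in skeletal nuclei. It reached 10 CPM in 2 of the 27 sums and so fell below the filter on low values that the fit required, and was not tested between classes there. In skeletal nuclei the values were 8.25, 3.14 and 8.38 CPM in the cervical libraries, 6.79, 8.18 and 10.6 CPM in the thoracic ones and 10.9, 9.68 and 7.80 CPM in the lumbar/sacral ones. Visceral nuclei held 4.07, 3.19 and 3.21, then 2.07, 4.16 and 2.44, then 4.84, 2.94 and 3.48 CPM. Interneurons held 5.83, 4.34 and 6.40, then 4.39, 5.85 and 6.23, then 6.47, 2.30 and 3.99 CPM. Skeletal nuclei were above visceral nuclei and above interneurons in 8 of 9 libraries each, and cervical replicate 2 was the exception for both. In the fit without the filter, the difference on the log2(CPM + 5) scale, which understates changes of low genes, was 0.64 (SE 0.094, adjusted p = 8.51e-06) for skeletal against visceral nuclei, 0.38 (SE 0.094, adjusted p = 0.00260) for skeletal nuclei against interneurons and -0.26 (SE 0.094, adjusted p = 0.0353) for visceral nuclei against interneurons. That fit called 47.4%, 41.2% and 34.4% of the 21418 genes in it. All *Hcn4* values rest on few counts, 323 corrected counts in all skeletal nuclei, 147 in visceral nuclei and 200 in interneurons.

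**Figure D1:**
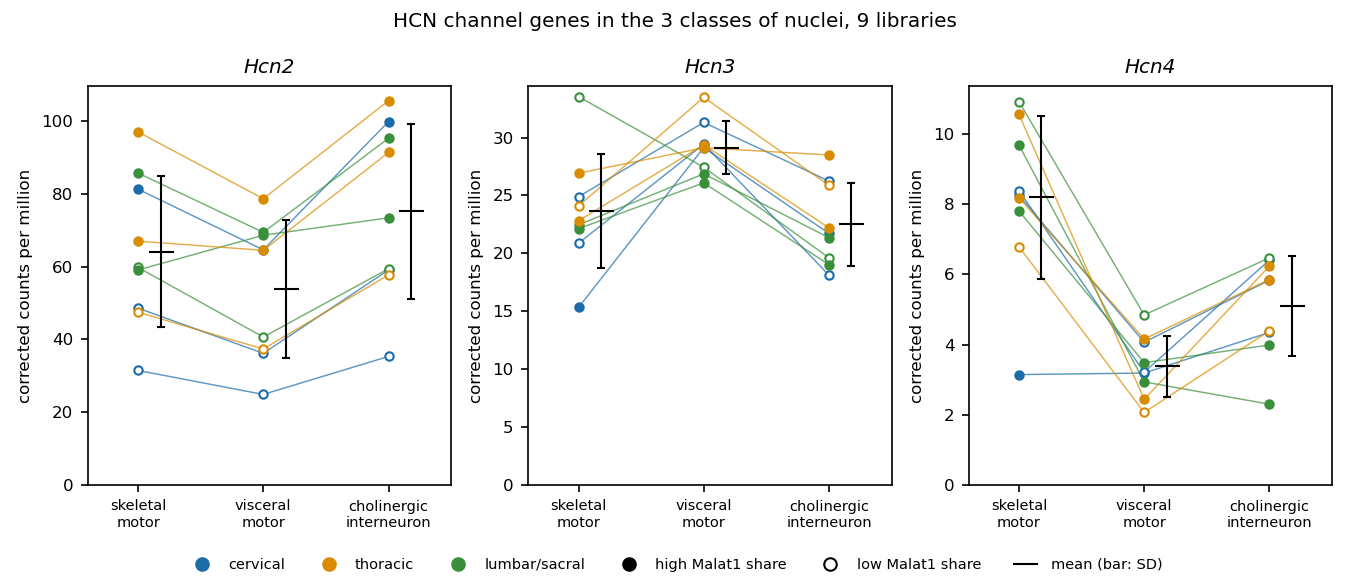
Level of *Hcn2*, *Hcn3* and *Hcn4* (y axis, CPM) in skeletal motor, visceral motor and cholinergic interneuron nuclei (x axis). Each point is 1 of 9 libraries, a line joins the points of a library, colour gives the labelled region, open points the 4 libraries with a low share of *Malat1*, and the black mark and bar give mean and SD. *Hcn2* dips and *Hcn3* peaks in visceral nuclei, and *Hcn4* is highest in skeletal nuclei in all libraries but cervical replicate 2 (3.14 CPM).

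Among the skeletal motor neurons the alpha type had the least *Hcn2*. The 3 types are S2, which the authors labelled alpha, S3, labelled gamma, and S1, labelled type 3. Alpha motor neurons drive the force-making muscle fibres and gamma motor neurons the fibres inside muscle spindles. In alpha nuclei *Hcn2* stood at 31.5, 79.5 and 15.7 CPM in the cervical libraries, at 29.6, 49.0 and 35.2 CPM in the thoracic ones and at 23.7, 59.6 and 26.2 CPM in the lumbar/sacral ones. Gamma nuclei held 63.3, 84.9 and 34.1, then 62.4, 107 and 67.6, then 75.1, 92.5 and 75.6 CPM, more than alpha nuclei in 9 of 9 libraries. S1 nuclei held 57.5, 78.9 and 42.6, then 50.02, 99.3 and 76.5, then 58.8, 81.7 and 75.5 CPM, more than alpha nuclei in 8 of 9, with cervical replicate 2 level at 78.9 against 79.5 CPM. The limma difference was -0.91 (SE 0.12, adjusted p = 6.25e-07) for alpha against gamma and 0.84 (SE 0.12, adjusted p = 3.60e-06) for S1 against alpha, and S1 and gamma nuclei did not differ by more than their error (-0.07, SE 0.12, adjusted p = 0.793). The shares of genes called in these 3 comparisons, out of 11465, were 31.1%, 25.4% and 19.8%. Both calls were kept when each replicate was left out and without the library term.

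*Hcn3* differed less, in the same direction. Alpha nuclei held 19.4 ± 8.63 CPM, with the lowest value (3.93) in cervical replicate 2 and the highest (34.2) in lumbar/sacral replicate 1, S1 nuclei 26.8 ± 6.19 CPM and gamma nuclei 25.0 ± 4.36 CPM (SD, n = 9). S1 was above alpha in 7 of 9 libraries, by 0.46 in the limma fit (SE 0.16, adjusted p = 0.0383). That call was lost when any one replicate was left out (0.51, adjusted p = 0.162 without replicate 1, 0.34, adjusted p = 0.0520 without replicate 2, and 0.53, adjusted p = 0.130 without replicate 3) and without the library term (adjusted p = 0.109). Alpha against gamma gave -0.39 (SE 0.16, adjusted p = 0.0751), and under scaling by the median of ratios -0.43 with an adjusted p of 0.0237. With a replicate left out it was between -0.52 and -0.17, smallest without replicate 2, and was not called.

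*Hcn4* was highest in gamma nuclei. These held it at 9.35, 5.37 and 11.5 CPM in the cervical libraries, at 8.78, 10.5 and 14.6 CPM in the thoracic ones and at 15.4, 11.3 and 11.4 CPM in the lumbar/sacral ones. Alpha nuclei held 6.02 ± 5.08 CPM, with no corrected count in cervical replicate 2 and lumbar/sacral replicate 1 and 16.7 CPM in lumbar/sacral replicate 2. Lumbar/sacral replicate 1, the library with the lowest totals, had 0 of 159 alpha nuclei with a count, which allows up to 1.89% of nuclei with a corrected count and does not limit the share that express the gene. S1 nuclei held 6.61 ± 2.13 CPM (SD, n = 9) and were below gamma nuclei in 9 of 9 libraries, though the difference missed the threshold (-0.45, SE 0.20, adjusted p = 0.140). Alpha against gamma was called (-0.64, SE 0.20, adjusted p = 0.0161, alpha lower in 8 of 9 libraries). *Hcn4* passed the filter of this fit through its gamma sums, so the test is not independent of the high gamma level. In the limma fit without the filter the difference was also -0.64 (SE 0.21, adjusted p = 0.0366). Without replicate 1 the adjusted p was 0.112 and without replicate 3 it was 0.179, with differences of -0.56 and -0.59. S1 and alpha nuclei were not told apart (0.19, SE 0.20, adjusted p = 0.556).

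**Figure D2:**
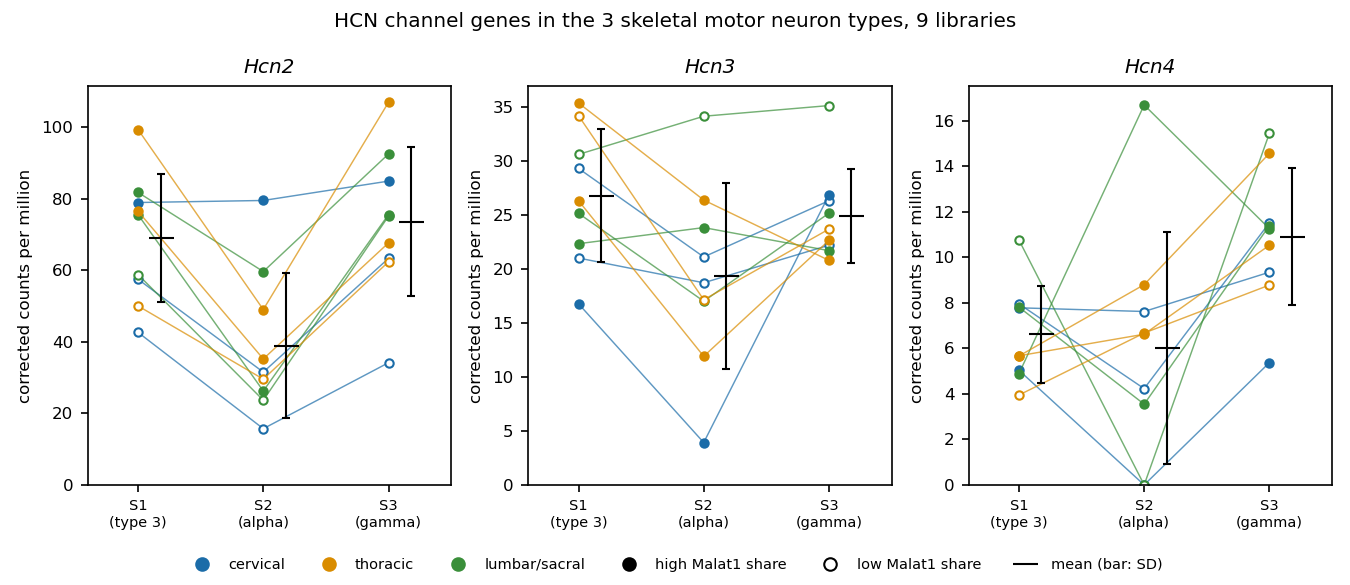
Level of *Hcn2*, *Hcn3* and *Hcn4* (y axis, CPM) in S1 (type 3), S2 (alpha) and S3 (gamma) nuclei (x axis), with points, lines, colours, open points and error bars as in the plot by class. *Hcn2* falls in alpha nuclei along nearly every line, with a mean of 38.9 CPM against 69.0 and 73.6 CPM, and *Hcn4* is highest in gamma nuclei in 8 of 9 libraries.

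Between interneuron clusters *Hcn2* and *Hcn3* varied and *Hcn4* was not shown to. The F statistic of limma over I1 to I8 was 8.66 for *Hcn2* (adjusted p = 4.68e-07), 9.63 for *Hcn3* (adjusted p = 9.71e-08) and 1.78 for *Hcn4* (adjusted p = 0.137), where 65.8% of 12967 genes were called. *Hcn3* was highest in I5, where it stood at 43.0, 46.1 and 28.9 CPM in the cervical libraries, at 62.6, 37.6 and 38.7 CPM in the thoracic ones and at 40.6, 54.7 and 36.7 CPM in the lumbar/sacral ones. I5 was the highest interneuron cluster for *Hcn3* in 8 of 9 libraries. I1, the largest interneuron cluster with 1520 nuclei, was the lowest by mean for both genes. It held *Hcn3* at 15.5 ± 3.89 CPM, between 9.46 and 21.2 CPM, and *Hcn2* at 49.5 ± 15.9 CPM, between 24.4 and 73.6 CPM (SD, n = 9). In 9 of 9 libraries I1 was below the mean of the other interneuron clusters for both genes. *Hcn2* was highest in I6 with 98.9 ± 32.2 CPM and was next in I4 with 93.7 ± 31.5, I3 with 87.6 ± 42.0 and I5 with 83.3 ± 24.9 CPM. I6 was above the mean of the others in 9 of 9 libraries but was the top cluster in 1 of them.

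The visceral clusters were not shown to differ for any member. The F statistic over V1 to V10 was 1.76 for *Hcn2* (adjusted p = 0.195), 1.42 for *Hcn3* (adjusted p = 0.343) and 1.92 for *Hcn4* (adjusted p = 0.146), where 32.3% of 13161 genes were called. Mean levels ran from 47.3 CPM in V5 to 66.2 CPM in V9 for *Hcn2* and from 20.5 CPM in V10 to 32.4 CPM in V7 for *Hcn3*. *Hcn4* ran from 0.723 CPM in V6, with 6 corrected counts in 575 nuclei, to 5.23 CPM in V5. In V7 it had no count in 5 of 9 libraries, the largest of them with 0 of 148 nuclei, which allows up to 2.03% of nuclei with a corrected count and likewise does not limit expression.

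Ordered over all 21 clusters, of which 14 had at least 10 nuclei in all 9 libraries, *Hcn2* fell from I6 through I4, I3, I5, I7, S3, I2 and S1 to V9, V7, I8, V10, V4, V8, V1, I1, V2, V3, V6 and V5, and was lowest in S2 at 38.9 ± 20.2 CPM. The top and the bottom of this order were 2.54-fold apart. Neighbours were compared by the mean of their difference within libraries, and of 20 neighbouring pairs 1 differed by more than the SD of that difference, V9 over V7 (by 11.5 ± 8.91 CPM, n = 6). *Hcn3* fell from I5 through V7, V1, V6, V2, V4, I6, V5, V9, S1, V3, S3, I8, V8, I2, I7, V10, S2, I3 and I4 to I1, a 2.79-fold range with no neighbouring pair beyond that spread. *Hcn4* fell from S3 at 10.9 ± 3.01 CPM through I5, S1, I6, S2, I7, I2, I8, V5, I1, V1, I4, V2, V10, V8, V4, V9, V3 and I3 to V7 and V6, also with no neighbouring pair beyond the spread among the 19 that could be compared. Each mean was taken over the libraries that held the cluster, 3 for V8 and 6 for I7 and V9. Some neighbours therefore went against the order within shared libraries. Examples were I7 against S3 for *Hcn2* (-5.06 ± 39.9 CPM, n = 6) and V5 against V9 for *Hcn3* (-6.79 ± 12.7 CPM, n = 4). By these means the genes differed in which clusters led. I5 was among the first 4 for each of them, whereas S2 was last for *Hcn2* and at rank 5 for *Hcn4*.

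**Figure D3:**
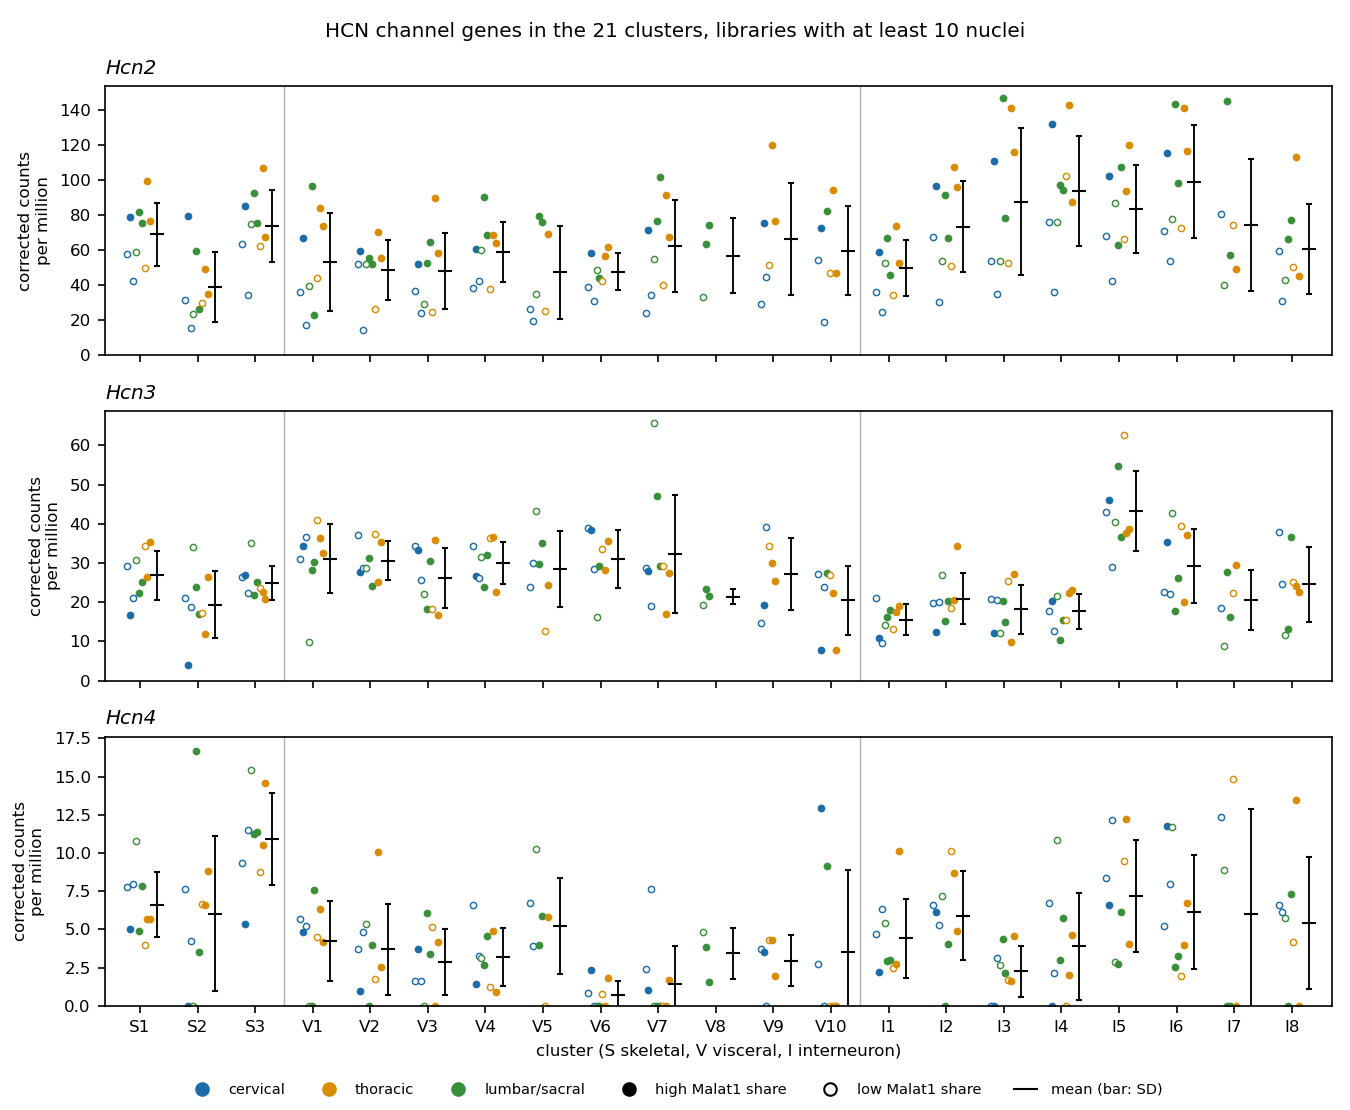
Level of *Hcn2*, *Hcn3* and *Hcn4* (y axis, CPM, one panel each) in the 21 clusters (x axis). Each point is a library with at least 10 nuclei of the cluster, coloured by labelled region, open for a low share of *Malat1*, with mean and SD beside it. *Hcn2* spans 38.9 CPM in S2 to 98.9 CPM in I6, *Hcn3* has its highest mean in I5 at 43.2 CPM, and many *Hcn4* points lie at 0.

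*Hcn2* moved with the *Malat1* set of the library, whereas the ranges of *Hcn3* overlapped between the sets. In visceral nuclei *Hcn2* stood at 24.9 to 40.7 CPM in the 4 libraries with little *Malat1* and at 64.5 to 78.7 CPM in the 5 with much of it. In interneurons the ranges were 35.3 to 59.5 and 73.5 to 106 CPM. These ranges did not overlap, while in skeletal nuclei they met, at 31.5 to 59.8 and 59.1 to 97.1 CPM. Ranges of the sets without overlap were found for 29.7% of 10031 genes in visceral nuclei, 34.6% of 9805 in interneurons and 27.2% of 9999 in skeletal nuclei. *Hcn3* stood at 27.4 to 33.5 and 26.1 to 29.4 CPM in visceral nuclei, 18.1 to 26.2 and 19.0 to 28.5 CPM in interneurons and 20.9 to 33.5 and 15.3 to 26.9 CPM in skeletal nuclei, overlapping throughout. Genes spanning under 20 kb, as *Hcn2* and *Hcn3* do, took 9.58 to 11.6% of the corrected counts in the low set and 18.8 to 23.8% in the high set. The microglia markers *P2ry12*, *Cx3cr1* and *Csf1r*, 3 of 3 in the matrix and none at 0, summed to 6.28 to 11.6 CPM in the low set and 35.7 to 96.8 CPM in the high set. The part of these measures in the *Hcn2* levels was not tested. All 3 libraries of replicate 2, the male pool, are in the high set, and the low set holds all of replicate 1, so only replicate 3 holds both sets. There *Hcn2* in visceral nuclei was 24.9 CPM in the low library and 64.5 and 68.7 CPM in the high ones. The low library of replicate 3 is its cervical one and the high ones are thoracic and lumbar/sacral. Set and labelled level therefore cannot be told apart within replicate 3, and its low side rests on a single library.

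**Figure D4:**
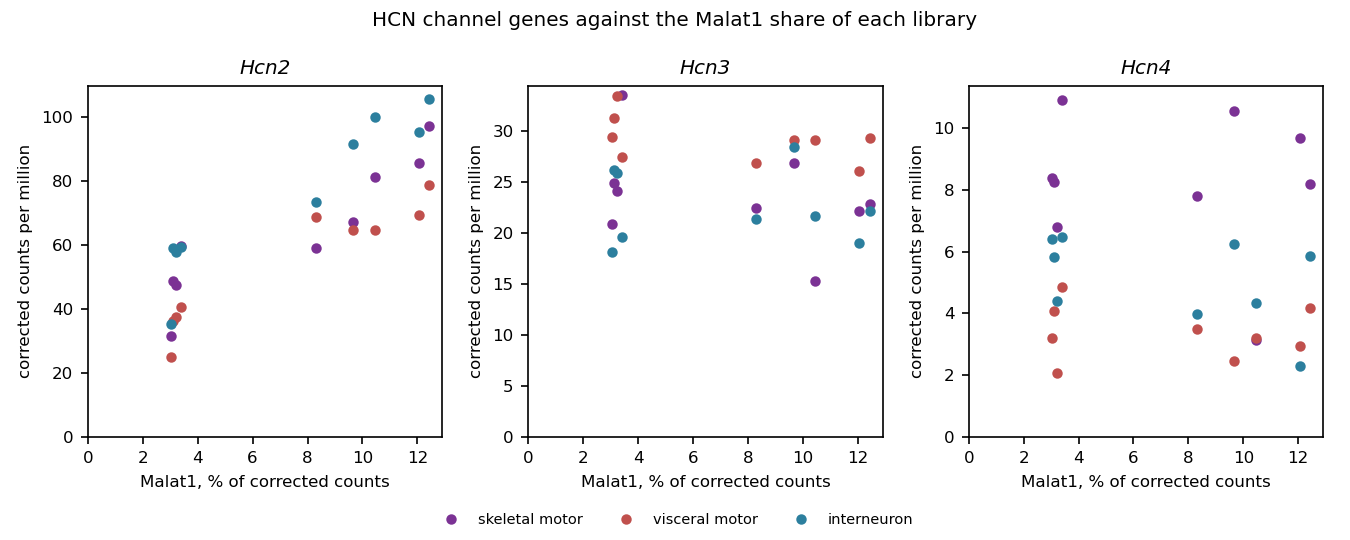
Level of *Hcn2*, *Hcn3* and *Hcn4* (y axis, CPM) against the share of *Malat1* in the corrected counts of the library (x axis, percent). Each library gives 3 points, coloured by class. The libraries form 2 groups, at 3.03 to 3.40% and 8.30 to 12.4%, and *Hcn2* is higher in the second, whereas *Hcn3* and *Hcn4* spread over the same levels in both.

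Neither *Hcn2* nor *Hcn3* was called between spinal levels, and *Hcn4* was below the filter in these fits. *Hcn2* averaged 53.8 ± 25.3, 70.5 ± 25.0 and 68.2 ± 15.2 CPM in cervical, thoracic and lumbar/sacral skeletal nuclei (SD, n = 3 each), 41.9 ± 20.5, 60.2 ± 20.99 and 59.6 ± 16.4 CPM in visceral nuclei and 64.8 ± 32.7, 85.0 ± 24.6 and 76.1 ± 18.1 CPM in interneurons, with overlapping ranges in each class. *Hcn3* averaged 20.4 ± 4.80, 24.6 ± 2.10 and 26.0 ± 6.49 CPM in skeletal nuclei, 29.96 ± 1.18, 30.7 ± 2.45 and 26.8 ± 0.676 CPM in visceral nuclei and 22.02 ± 4.08, 25.5 ± 3.16 and 19.997 ± 1.21 CPM in interneurons. In visceral nuclei the 3 lumbar/sacral libraries, at 26.1 to 27.4 CPM of *Hcn3*, were all below the 6 others, at 29.1 to 33.5 CPM, but the fit did not call it (-0.15, SE 0.095, adjusted p = 0.647). That comparison called 4.27% of genes. For *Hcn2* it gave 0.26 (SE 0.31). The share of all genes whose libraries separate by level in this way was not counted. The levels also differed in their visceral clusters. V8 was summed only in lumbar/sacral libraries, with *Hcn3* at 21.4 CPM, and V9 only in cervical and thoracic ones. With V1 to V4 and V7 alone, weighted equally, the *Hcn3* difference was -0.045 (SE 0.13), not called. The part of the cluster make-up in the split was not tested. Lumbar/sacral against the other regions gave 0.19 (SE 0.29) for *Hcn2* and 0.17 (SE 0.17) for *Hcn3* in skeletal nuclei, where 0.01% of genes were called and the median over all genes was 0.12. In interneurons it gave 0.08 (SE 0.30) and -0.19 (SE 0.13), where 0.051% were called. Cervical against thoracic gave -0.40 (SE 0.33), -0.51 (SE 0.36) and -0.43 (SE 0.35) for *Hcn2* in skeletal, visceral and interneuron nuclei, and 0% of genes were called by limma in each, with 607, 160 and 189 genes at an unadjusted p under 0.05. The adjusted p-values of *Hcn2* and *Hcn3* over these comparisons were 0.647 or more. *Hcn4* averaged 6.59 ± 2.99, 8.51 ± 1.91 and 9.47 ± 1.57 CPM in cervical, thoracic and lumbar/sacral skeletal nuclei, 3.49 ± 0.501, 2.89 ± 1.12 and 3.75 ± 0.982 CPM in visceral nuclei and 5.53 ± 1.06, 5.49 ± 0.973 and 4.25 ± 2.10 CPM in interneurons (SD, n = 3 each). It was tested between regions only in the fit without the filter, with adjusted p-values of 0.86 or more.

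With the libraries labelled cervical and thoracic replicate 2 both left out, *Hcn2* in lumbar/sacral against the other nuclei was 0.47 (SE 0.21, adjusted p = 0.772) in skeletal, 0.53 (SE 0.25, adjusted p = 0.381) in visceral and 0.34 (SE 0.24, adjusted p = 0.873) in interneuron nuclei, and *Hcn3* was 0.07 (SE 0.17), -0.17 (SE 0.11) and -0.23 (SE 0.14), with adjusted p-values of 0.539 or more. Cervical against thoracic was then -0.48 (SE 0.27), -0.63 (SE 0.33) and -0.61 (SE 0.32) for *Hcn2* and -0.13 (SE 0.22), -0.04 (SE 0.15) and -0.26 (SE 0.19) for *Hcn3* in skeletal, visceral and interneuron nuclei, with adjusted p-values of 0.738 or more. The cervical libraries that remain both have little *Malat1*. Their *Hcn2* levels in skeletal nuclei were 31.5 and 48.6 CPM, and those of the 3 lumbar/sacral libraries 59.1 to 85.8 CPM. The share of all genes that separate in this way over so few libraries was not counted. *Hcn4* was not tested with cervical and thoracic replicate 2 left out. The libraries of a replicate share their mice, and a term for the replicate called 4 genes in place of 1 in skeletal nuclei, 737 in place of 428 in visceral nuclei and 44 in place of 5 in interneurons for lumbar/sacral against the rest, none of them a member. Whether the class differences themselves changed with level was tested as an interaction for *Hcn2* and *Hcn3*, and neither was called: the difference of skeletal from visceral nuclei changed by 0.32 (SE 0.15, adjusted p = 0.276) for *Hcn3* and by -0.07 (SE 0.15, adjusted p = 0.841) for *Hcn2* in lumbar/sacral tissue, where 5.96% of genes were called. For skeletal nuclei against interneurons 0.157% were called and *Hcn3* gave 0.36 (SE 0.16, adjusted p = 0.446), and for visceral nuclei against interneurons 8.94% were called and *Hcn2* gave 0.18 (SE 0.11, adjusted p = 0.392). Without both libraries these 4 values were 0.24 (SE 0.15), -0.06 (SE 0.17), 0.31 (SE 0.15) and 0.19 (SE 0.13), with adjusted p-values of 0.443 or more.

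HCN subunits can join in mixed channels, so nuclei with a pair of members were counted beside the number that the single shares give when multiplied within each library and cluster. *Hcn2* and *Hcn3* were found together in 350 skeletal nuclei against 325, in 432 visceral nuclei against 434 and in 379 interneurons against 341. *Hcn2* and *Hcn4* were found together in 119 against 122.6, 57 against 51.1 and 92 against 80.7 nuclei, and *Hcn3* and *Hcn4* in 55 against 52.9, 42 against 32.5 and 52 against 35.8. The counts were thus close to the products in skeletal nuclei, and in interneurons 1.11 to 1.45 times as high. The products take no account of the totals of single nuclei, whose part in these differences was not tested.

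Genes that help HCN channels to the membrane or tune them were called between classes about as often as all genes. Of 12 accessory genes, 11 were in the matrix and 9 passed the filter. In skeletal against visceral nuclei 2 were higher and 4 lower, where 66.7% of all genes were called, with a median difference of -0.14 against -0.04 over all genes. *Pex5l*, which codes for TRIP8b, the protein that steers HCN channels to the membrane and weakens their response to cyclic AMP, was higher by 3.37 (SE 0.15, adjusted p = 1.80e-14). *Mrvi1*, a relative of *Lrmp* whose protein IRAG1 is a target of cGMP-dependent kinase, was higher by 2.08 (SE 0.21, adjusted p = 1.21e-08). *Flna*, the actin crosslinker filamin A, fell by 1.12 on the log2 scale (adjusted p = 7.29e-13), *Ptpra*, a receptor tyrosine phosphatase, by 0.48 (adjusted p = 1.83e-09), *Nedd4l*, a ubiquitin ligase of membrane channels, by 0.37 (adjusted p = 0.000174) and *Vapa*, a tether of the endoplasmic reticulum, by 0.14 (adjusted p = 0.00914). *Kctd3*, a partner of HCN3, did not pass the test (-0.01, SE 0.051, adjusted p = 0.819), nor did *Vapb* (-0.10, SE 0.074, adjusted p = 0.257) or the kinase gene *Src* (-0.15, SE 0.068, adjusted p = 0.0543). Against interneurons, 2 of the 9 were higher and 3 lower in skeletal nuclei, and between visceral nuclei and interneurons 3 were higher and 2 lower, where 59.5% and 51.4% of all genes were called.

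Within the skeletal types *Pex5l* and *Mrvi1* were higher in alpha nuclei, where *Hcn2* was lowest. Against gamma nuclei *Pex5l* differed by 1.28 (SE 0.15, adjusted p = 1.36e-07), *Mrvi1* by 3.89 (SE 0.16, adjusted p = 3.87e-16) and *Nedd4l* by 1.63 (SE 0.085, adjusted p = 3.80e-14) in alpha nuclei. Of the 9 accessory genes tested 4 were higher and 2 lower in alpha than in gamma nuclei, where 31.1% of all genes were called, with a median of 0.21 against 0.01 over all genes.

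The adenylyl cyclases, which make the cyclic AMP that HCN channels bind, included genes called in either direction. Of 10 genes 9 were in the matrix and tested. In skeletal against visceral nuclei 4 were higher and 4 lower, where 66.7% of all genes were called, with a median of 0.08 against -0.04 over all genes, and *Adcy10* was not called (0.08, SE 0.064, adjusted p = 0.277). *Adcy8* (3.01, SE 0.14, adjusted p = 7.63e-14), *Adcy1* (1.44, SE 0.11, adjusted p = 2.19e-10), and *Adcy5* (1.19, SE 0.064, adjusted p = 5.64e-13) were the largest of the higher ones. *Adcy7* (-2.67, SE 0.12, adjusted p = 4.28e-14), *Adcy2* (-2.003, SE 0.12, adjusted p = 2.90e-12) and *Adcy3* (-0.60, SE 0.054, adjusted p = 2.26e-09) were lower. *Adcy1* and *Adcy8* code for the cyclases that calcium and calmodulin stimulate, and calcium inhibits the product of *Adcy5*. Skeletal nuclei against interneurons gave 4 higher and 4 lower, visceral nuclei against interneurons 3 higher and 5 lower, where 59.5% and 51.4% of all genes were called.

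The genes most like each member over the 21 clusters were found by Pearson's r of mean log2(CPM + 5), among 14464 genes. For *Hcn2* they were *Chpt1* (r = 0.81), an enzyme of phosphatidylcholine synthesis, *A230072E10Rik* (0.79), *Cox7b* (0.78), a subunit of cytochrome c oxidase, *Idh3a* (0.78), a subunit of isocitrate dehydrogenase, and *Fbxo44* (0.77). For *Hcn3* they were *Gmeb1* (0.89), *1110034G24Rik* (0.84), *Gm29502* (0.83), *Tvp23b* (0.83) and *1110059E24Rik* (0.79). For *Hcn4* they were *Ccdc58* (0.84), *Gm15345* (0.84), *Pigz* (0.83), *March3* (0.83) and *Myadml2os* (0.81). No gene was like more than 1 member by this rule. The members were little alike: r over the 21 clusters was 0.03 between *Hcn2* and *Hcn3*, 0.29 between *Hcn2* and *Hcn4* and 0.04 between *Hcn3* and *Hcn4*. The clusters share libraries and depth, and rare clusters are averaged over fewer libraries.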

How the data were processed

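Nuclei sorted for the fluorescent envelope protein were sequenced on the 10x platform. The authors aligned reads to mm10 with Cell Ranger 3.1.0 and used Seurat and DESeq2, per the labels' processing notes. The deposited values are whole numbers from SCTransform, a normalization model, and are treated here as a score and not as raw counts. Within a library the totals per nucleus varied by an SD of only 5.85 to 10.7% of their mean. Depth before correction is therefore unknown. Cluster, class and library are the labels deposited with each nucleus, and in 4 nuclei the skeletal type label went against the cluster, which was used.

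Corrected counts were summed per library and class or cluster with at least 10 nuclei and scaled to 1000000. log2(CPM + 5) was tested with limma-trend (limma 3.58.1, R 4.3.3, two-sided). Genes that reached 10 CPM in 3 or more sums entered, and calls required a Benjamini-Hochberg adjusted p below 0.05. Class, type and cluster fits had a term for the library, and region fits did not. edgeR was not run, nor were TMM scaling and the DESeq2 test, since they need raw counts, and median-of-ratios scaling took their place. The limma steps were tested on simulated data. Scrublet in scanpy 1.11.5 marked 164 nuclei (1.02%) as doublets, which were kept in the main values. Thinning to 4600 left out 8.63% of nuclei. Limits for a count of 0 are 3 counts over the nuclei and cover counting error only.

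The members, the lists and the tests were chosen with earlier results of these data known. Named genes are the members, of the accessory and of the cyclase list up to 6 called genes with the largest difference of skeletal from visceral nuclei, and the 5 genes most like each member. List genes tested but not called between skeletal and visceral nuclei are named as such. *Slc18a3*, *Cldn5*, *Cav3* and *Adcy4* were not analysed here. *Kcne2* and *Lrmp* were below the filter. The labels say that the libraries of a replicate are of the same pool, and deviations from region means correlated by 0.51 to 0.56 on average between libraries of one number, from -0.22 to 0.92. The negative values were all pairs with cervical replicate 3, the only library of its pool with little *Malat1*. In the 3 classes that library correlated by 0.37 to 0.46 with lumbar/sacral replicate 1, of another pool but also with little *Malat1*.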

Additional observations from a re-analysis of the deposited data

Results flagged for a closer look

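Over 69 sets of 4 to 10 libraries (*Hcn2*, *Hcn3* or *Hcn4* in a class or cluster), 4 held a library whose gap to its nearest neighbour was above the 95% critical value of Dixon's ratio of gap to range, where chance gives about 1 in 20. *Hcn3* in gamma (S3) nuclei was 35.2 CPM in lumbar/sacral replicate 1, against 20.8 to 26.9 CPM in the other 8 libraries. *Hcn3* in V1 nuclei was 9.81 CPM in the same library, against 28.3 to 41.0 CPM. *Hcn3* in V6 nuclei was 16.2 CPM there too, against 28.2 to 38.8 CPM in the other 7 libraries. That library had 23 V1 and 13 V6 nuclei and the lowest totals of all. *Hcn3* was found in 4.35% and 7.69% of them, so both values rest on very few corrected counts. *Hcn4* in V7 nuclei was 7.62 CPM in cervical replicate 3, with 27 V7 nuclei, against 0 to 2.38 CPM. It was found in 7.41% of the 27, again very few corrected counts.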

How the results depend on the processing

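For the members, 503 of 521 alternative fits gave the same call as the main ones. Of the 521, 294 were region fits, whose main fits called at most 4.27% of all genes. All changes fell in class or skeletal type fits. Between classes *Hcn2* lost 5 calls, *Hcn3* lost 2 and *Hcn4* gained 3. Between skeletal types *Hcn3* lost 5 and gained 1, and *Hcn4* lost 2. The cause of the changes was not tested. Between regions none of 294 alternatives, 288 of them for *Hcn2* and *Hcn3* and 6 for *Hcn4* without the filter, gave a call (lowest adjusted p 0.301), and mean levels by class stayed within 1 SD in 45 of 45. Without the replicate block (no term for the library) *Hcn2* lost its calls between classes (differences 0.25, -0.21 and -0.46 with adjusted p 0.385, 0.497 and 0.116), *Hcn3* lost S1 against S2 (0.46), and 3586 genes were called for visceral nuclei against interneurons and 1930 for S1 against S2. With a pseudocount of 1 or 20 *Hcn4* in S2 against S3 was -1.20 or -0.27, called in both. The *Malat1* sets, the term for them and the fit without both replicate 2 libraries were added after seeing the data. In the high *Malat1* libraries *Hcn2* in skeletal against visceral nuclei was 0.15 (not called), and in the low ones *Hcn2* in skeletal nuclei against interneurons was -0.16 and *Hcn3* in skeletal against visceral nuclei -0.21 (not called). With no filter on low values *Hcn4* was called between classes (0.64, 0.38 and -0.26) and *Hcn3* in S1 against S2 was not (0.46, adjusted p 0.0582). Median-of-ratios scaling gave -0.43 for *Hcn3* in S2 against S3, called. Leaving out a replicate gave *Hcn3* in skeletal against visceral nuclei as -0.33 to -0.19, *Hcn3* in S1 against S2 as 0.34 to 0.53 and *Hcn4* in S2 against S3 as -0.79 to -0.56. Genes called with a replicate left out were 1650 to 4056 for S1 against S2, 1456 to 2371 for S1 against S3 and 2221 to 4616 for S2 against S3.

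Region counts rested on few libraries. For lumbar/sacral against the rest, 1 gene was called in skeletal nuclei, 428 in visceral nuclei and 5 in interneurons. Leaving out a replicate or a single library gave 0 to 1, 0 to 471 and 0 to 9, and in visceral nuclei 0 without replicate 3, 47 without replicate 1 and 249 without replicate 2. In skeletal nuclei the count was 0 in the high and in the low *Malat1* libraries and with a pseudocount of 1, 8 with a term for the set, 12 with no filter and 4 with the replicate block. In visceral nuclei the count was 26 in the high libraries, 833 with the term and 737 with the block. With clusters weighted equally it was 70, over V1 to V4 and V7 only. That fit left out V8, summed only in lumbar/sacral libraries, and V9, summed only in cervical and thoracic ones. The parts of the weighting and of the clusters left out were not told apart. In interneurons the count was 13 without both replicate 2 libraries, 0 in the high and in the low libraries and 83 with the term. It was 1 with clusters weighted equally (I1 to I6), 3 with median-of-ratios scaling, 2 with a pseudocount of 1 and 44 with the block. Cervical against thoracic called 1 gene in skeletal nuclei without both replicate 2 libraries (0 to 1 with a replicate left out) and 66 in visceral nuclei in the low libraries, where a single thoracic library is assumed to vary like the cervical ones.

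Counting only nuclei with 2 or more corrected counts, shares were 10.4, 8.48 and 14.4% for *Hcn2*, 1.88, 2.59 and 1.91% for *Hcn3* and 0.270, 0.0265 and 0.163% for *Hcn4* in skeletal, visceral and interneuron nuclei. Thinned, the share was 10.4, 12.8 and 10.5% for *Hcn3* and 3.39 and 1.61% for *Hcn4* in skeletal and visceral nuclei. With 6 corrected counts of *Hcn4* in all V6 and in all V7 nuclei, differences between such clusters were not detectable at this depth.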
